A study of Mus musculus with 4 samples.

Results

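Cytokine genes were followed in sorted colonic monocytes and macrophages. There were 6 of them, Il10, Il1b, Tnf, Il1rn, Il18 and Tgfb1. They were chosen by name, as inflammatory and regulatory cytokines of macrophages, and all 6 were found among the 11820 genes of the deposited matrix. Of 4 male C57BL/6N mice, 2 (chow mice 9 and 11) were kept on normal chow and 2 (HFD mice 1 and 3) on a coconut-based high-fat diet (HFD) with 60% fat. The diets were given for 1 week to animals of 6 to 7 weeks of age at the start. From the lamina propria of each colon, live CD45+Lin-CD11b+CD24- cells that carried Ly6C or CD64 were sorted, and each mouse was captured in 1 well of a droplet device with a 3′ kit, so that every RNA molecule carried a unique molecular identifier (UMI).

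Interleukin-1β (Il1b) and TNF are the classical alarm cytokines of monocytes, and interleukin-18 is made like interleukin-1β as a precursor that caspase-1 cleaves. The IL-1 receptor antagonist (Il1rn) occupies the IL-1 receptor without signalling. Interleukin-10 restrains the macrophage that makes it through the IL-10 receptor and STAT3, and intestinal macrophages that cannot respond to it turn inflammatory. Transforming growth factor β1 (Tgfb1) is secreted in a latent form and, once activated, acts on macrophages and T cells. In the colon, Ly6C-high monocytes enter from the blood, gain MHC class II, lose Ly6C and become resident macrophages with high levels of C1q, and IL-10 is a known product of the resident cells.

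The cells were therefore placed along these 3 levels. C1q stands for the summed UMIs of C1qa, C1qb and C1qc and MHC II for those of H2-Aa, H2-Ab1, H2-Eb1 and Cd74, both per 10000 UMIs of a cell, and a cell was Ly6c2-positive with at least 1 UMI of Ly6c2. Cells above 23.8 for C1q were called C1q-high, and the others were divided by Ly6c2 and by an MHC II level of 204. The chow mice had 764 of 904 (84.5%) and 1849 of 2002 (92.4%) C1q-high cells, and the HFD mice 458 of 966 (47.4%) and 653 of 1548 (42.2%). Ly6c2-positive MHC II-low cells numbered 66 and 69 on chow against 280 and 326 on HFD. These groups are ranges of a level and not cell types. Of all 5420 cells, 172 lay within 0.5 log2 units of the C1q cut and 269 within 0.5 of the MHC II cut.

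The labelled cell type was checked against its markers. Lyz2 had a UMI in 99.9% to 100% of the cells, Tyrobp in 97.7% to 99.2%, Ptprc in 79.3% to 83.1%, Cd68 in 69.8% to 80.9% and Csf1r in 73.1% to 85.5%. Itgam, the gene of the CD11b used in the sort, had one in 0.323% to 1.04% only. By contrast the 8 T and NK cell markers together gave 4.18 to 29.4 CPM (UMIs scaled to the total of the mouse). The depth was 3832283 and 7947893 UMIs on chow and 3824228 and 5584175 on HFD, with medians of 3266 to 3926 UMIs per cell, and 23 cell barcodes occurred in 2 mice. Epithelial markers summed to 9.39 to 35.7 CPM in 3 mice and to 204 CPM in HFD mouse 3. Jchain, a plasma cell gene that these cells should lack, had a UMI in 41.0% and 43.1% of the cells on chow and in 20.8% and 13.4% on HFD. In C1q-high cells the 4 measured B and plasma cell markers summed to 2686 and 3133 CPM on chow and to 165 and 126 CPM on HFD, against 4634, 3780, 2648 and 1315 CPM over all cells. Markers of dendritic cells, 8 genes summed, were at 92.1 and 90.7 CPM on chow and at 254 and 244 CPM on HFD, and Ccr7 among them had a UMI in 1.66% and 2.00% against 11.7% and 10.7% of cells. Siglech went the other way, with a UMI in 5.53% and 7.04% of chow cells and in 1.14% and 0.194% of HFD cells. The shares of Flt3, Clec9a and Cd209a were also higher in both HFD mice, and those of Xcr1, Zbtb46 and Itgae overlapped between diets. In the cells without a UMI of any of these 8 genes, a restriction chosen after the values were seen, the mean level of Il1rn was 120 CPM on chow against 384 CPM on HFD, that of Tnf 242 and 100 CPM, and that of Il10 194 and 32.8 CPM.

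RefSeq promoter sequence was at hand for 5 of the 6 genes. It is shown for Tnf and Il1rn, which passed the test of diet in opposite directions, and for Il1b, the ligand that Il1rn opposes. Each line gives the 250 bases before the transcription start in GRCm38.p6, 5′ to 3′ on the strand of the gene. Tnf lies on the minus strand (chr17:35202008-35202257), Il1b on the minus strand (chr2:129371140-129371389) and the first of 3 annotated starts of Il1rn on the plus strand (chr2:24336610-24336859). Capitals mark matches to 8 motifs searched on both strands.
Tnf: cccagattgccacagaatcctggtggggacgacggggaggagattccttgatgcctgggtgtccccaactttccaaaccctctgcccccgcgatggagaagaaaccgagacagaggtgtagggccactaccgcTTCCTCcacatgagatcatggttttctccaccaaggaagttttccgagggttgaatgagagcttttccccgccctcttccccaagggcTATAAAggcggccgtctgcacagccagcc
Il1b: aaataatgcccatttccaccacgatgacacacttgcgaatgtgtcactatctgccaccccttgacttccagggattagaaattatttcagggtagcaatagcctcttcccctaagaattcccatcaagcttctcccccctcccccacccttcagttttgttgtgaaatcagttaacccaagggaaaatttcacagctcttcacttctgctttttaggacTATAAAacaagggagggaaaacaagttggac
Il1rn: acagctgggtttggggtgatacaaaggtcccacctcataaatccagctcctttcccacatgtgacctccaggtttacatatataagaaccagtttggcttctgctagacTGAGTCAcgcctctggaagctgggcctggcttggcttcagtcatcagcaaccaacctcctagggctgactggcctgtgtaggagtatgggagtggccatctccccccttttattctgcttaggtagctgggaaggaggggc

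Tnf and Il1b each held a TATA box (TATAAA), which 12.4% of all 32851 promoter windows of this length held on either strand, and Il1rn held none. The Il1rn window held an AP-1 motif (TGANTCA, in 6.75% of windows) from base -141 to -135 before the start, and the Tnf window a PU.1 motif (GAGGAA, in 23.3% of windows) on the opposite strand. The CRE motif TGACGTCA (1.55% of windows), the GAS motif TTCNNNGAA (7.02%), the C/EBP motif TTGCNNAA (9.56%), the ISRE motif (2.98%) and the degenerate NF-kB motif (3.9%) were without a match in the 3 windows shown. A match describes letters only, and 3′ reads do not tell from which start a transcript came.

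Over all cells of a mouse, Il10 and Tnf were lower and Il1rn was higher on HFD. Il10, at chr1:131019845-131024974 in GRCm38, was at 118 and 261 CPM in chow mice 9 and 11 and at 39.7 and 28.5 CPM in HFD mice 1 and 3. The diets did not overlap, and the chow mice differed from each other by more than the HFD mice did. The log2 fold change (HFD over chow) was -2.72 ± 0.39 (SE, n = 2 mice per diet), with an adjusted p of 0.0035 in edgeR's quasi-likelihood test, a 6.58-fold fall. A gene was tested only with a UMI in at least 5% of all cells, which Il10 met mostly through the chow cells. It had a UMI in 13.6% and 27.6% of chow cells and in 5.18% and 3.29% of HFD cells. Il10 was also called without this filter. Without single mice the log2 fold change ran from -3.18 to -2.02. Leaving out HFD mouse 1 gave an adjusted p of 0.0175 and leaving out HFD mouse 3 one of 0.0335, both above the threshold of 1% used for a call.

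Tnf, at chr17:35199381-35202007, was at 258 and 232 CPM on chow and at 124 and 90.6 CPM on HFD. Every HFD value lay below every chow value. The log2 fold change was -1.41 ± 0.18 (adjusted p = 0.00199, edgeR), and without HFD mouse 3 the adjusted p was 0.015 at a log2 fold change of -1.19. Il1rn, at chr2:24336853-24351494, moved the other way, from 106 and 129 CPM on chow to 414 and 398 CPM on HFD. Its log2 fold change was 1.56 ± 0.13 (adjusted p = 0.000647, edgeR), a 2.96-fold rise that stayed past the threshold under every alternative run over all cells.

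Il1b, Il18 and Tgfb1 did not pass the test over all cells. Il1b, at chr2:129364570-129371139, gave 9968 and 10924 CPM on chow against 8959 and 8806 CPM on HFD, a log2 fold change of -0.45 ± 0.12 with an adjusted p of 0.0271 (edgeR). The antisense gene Il1bos overlaps it and had 76 UMIs in all, and whether counting used the strand is not given in the sources used here. Il18, at chr9:50554827-50581840, was at 41.8 and 38.5 CPM on chow and at 64.3 and 66.4 CPM on HFD, without overlap, with a log2 fold change of 0.49 ± 0.13 (adjusted p = 0.033, edgeR). Tgfb1, at chr7:25687002-25705077, was at 56.6 and 46.7 CPM on chow and at 46.8 and 49.6 CPM on HFD, and these ranges overlapped (log2 fold change -0.31 ± 0.15, adjusted p = 0.168, edgeR).

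Thus 3 of 6 cytokine genes were called over all cells, where 16.2% of the 4955 genes tested were called. After scaling by the trimmed mean of M-values (TMM), the diets did not overlap for any of the 6 genes, and they did not overlap for 69.6% of all genes tested. Scaling by library size alone raised the median log2 fold change of all genes by 0.22, and Il18 then reached 0.71 with an adjusted p of 0.00793 (edgeR). None of the 6 genes changed direction under that scaling. In sums over all cells, fewer cells of one kind and less RNA per cell cannot be told apart. Levels within groups of cells and with fixed weights of these groups are given below.

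**Figure D1:**
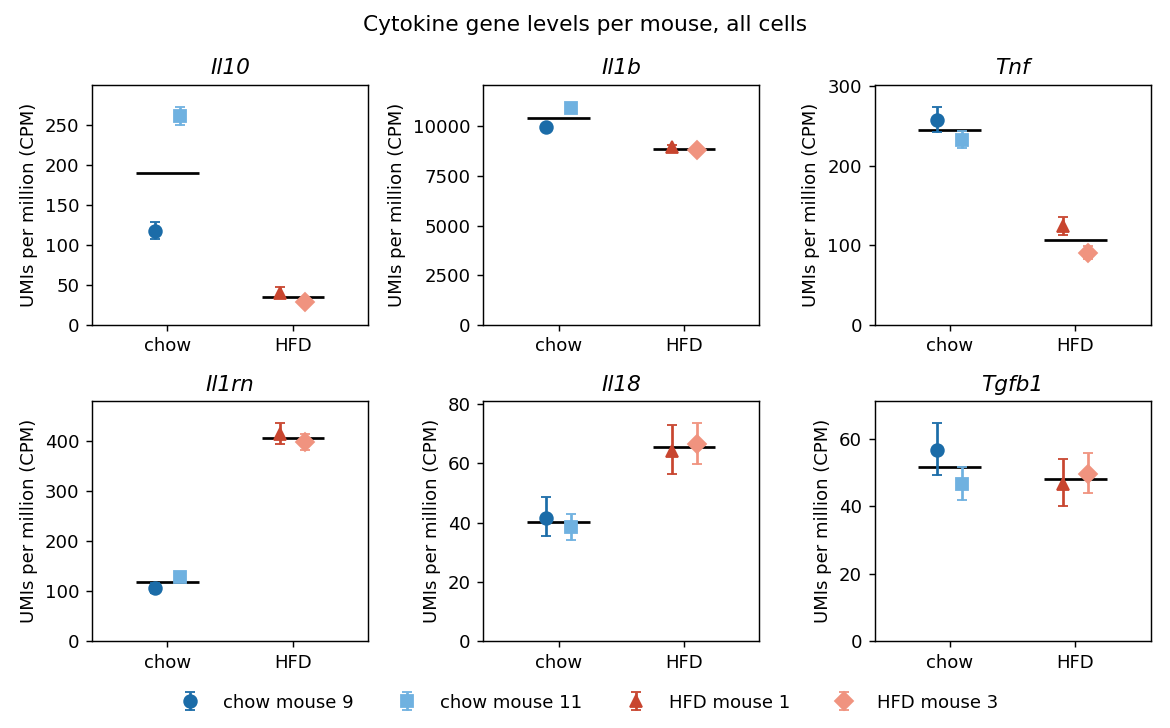
Level of each cytokine gene in the summed cells of each mouse, in CPM on linear axes that start at 0. Points are mice, bars on points are exact Poisson intervals at 95%, which cover counting error only, and black lines are the means of each diet. Il10 ranges from 118 to 261 CPM on chow and from 28.5 to 39.7 CPM on HFD, and Il1rn from 106 to 129 and from 398 to 414 CPM.

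The share of cells with a UMI was compared after every cell was thinned to 1500 UMIs, which left out 60 and 200 cells on chow and 124 and 201 on HFD. Il10 was found in 9.12% and 17.7% of thinned chow cells and in 3.33% and 2.67% of thinned HFD cells (unthinned 13.6%, 27.6%, 5.18% and 3.29%). Among cells with a UMI of Il10, the mean number was 1.97 ± 0.18 UMIs on chow and 1.96 ± 0.30 on HFD (SD, n = 2), so the diets differed in how many cells had a UMI and overlapped in how many UMIs such a cell had. Tnf was found in 21.2% and 21.1% of thinned chow cells and 11.3% and 9.13% of thinned HFD cells (unthinned 38.5%, 38.2%, 21.6% and 17.6%).

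Il1rn was found in 10.3% and 12.4% of thinned chow cells and in 30.0% and 32.9% of thinned HFD cells (unthinned 20.2%, 23.1%, 43.6% and 47.6%). Its UMIs per cell with a UMI were also higher on HFD, at 1.99 ± 0.16 against 1.43 ± 0.07 on chow (SD, n = 2). Nearly every cell had Il1b, with 92.7% and 97.2% of thinned cells on chow and 94.8% and 96.1% on HFD. Here the shares overlapped and the UMIs per cell with a UMI did not, at 15.9 ± 0.79 on chow and 13.7 ± 0.32 on HFD. Il18 was found in 5.92% and 5.38% against 8.55% and 9.43% of thinned cells, and Tgfb1 in 7.82% and 5.77% against 7.01% and 6.98%. With 2 mice against 2, no exact two-sided permutation test can give a p under 0.33, and the shares and ratios given here carry no smaller one.

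Within C1q-high cells, which by their rule resemble resident macrophages, Tnf fell and Il1rn rose, and Il10 lay just outside the threshold. These cells were not alike between diets. The 7 markers of Ly6C-high monocytes summed to 341 and 524 CPM in them on chow and to 2959 and 3839 CPM on HFD, and the 8 markers of resident macrophages to 23670 and 25108 CPM against 16819 and 15454 CPM. Their part in the results for C1q-high cells was not tested. Il10 was at 123 and 274 CPM on chow and at 75.9 and 54.2 CPM on HFD. The log2 fold change was -1.78 ± 0.36, and its adjusted p of 0.0101 (edgeR) just missed the threshold. Over the alternatives it ran from 1.79e-06 to 0.139, with 0.139 when HFD mouse 3 was left out and 0.00219 and 1.79e-06 when chow mouse 11 or 9 was. With the C1q cut set at the median of all cells the log2 fold change was -1.01 and the adjusted p 0.114.

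Tnf was at 271 and 240 CPM in C1q-high cells on chow and at 154 and 113 CPM on HFD. It fell by 1.09 on the log2 scale (SE 0.18, adjusted p = 0.00488, edgeR), a call lost without HFD mouse 1 (0.0154), without HFD mouse 3 (0.068) and at the median cut (0.0584). Il1rn was at 105 and 126 CPM on chow against 508 and 411 CPM on HFD, a log2 fold change of 1.84 ± 0.17 (adjusted p = 0.000409, edgeR), and was called under all 9 alternatives, down to 1.22 at the median cut. The summed dendritic cell markers in C1q-high cells were at 77.6 and 85.6 CPM on chow and at 194 and 169 CPM on HFD, and in C1q-high cells without any of them the mean of Il1rn was 118 CPM on chow against 410 CPM on HFD.

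In the same cells Il1b had 10214 and 10902 CPM on chow against 9331 and 8720 CPM on HFD (log2 fold change -0.37 ± 0.13, adjusted p = 0.0711, edgeR). Il18 had 39.1 and 37.8 against 46.3 and 34.2 CPM, which overlapped, unlike its values over all cells. Tgfb1 had 50.8 and 44.2 against 40.4 and 38.2 CPM (adjusted p = 0.138, edgeR). In C1q-high cells 2 of 6 cytokine genes were called and 10.5% of all genes tested. Leaving out HFD mouse 1 or 3 left 1 of 6, and leaving out either chow mouse gave 3 of 6.

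Genes that respond to tissue dissociation were also lower. Of 17 listed immediate-early and heat-shock genes, 9 were lower on HFD over all cells and 0 higher, with a list median of -1.01 (log2) where all genes had -0.01 and 16.2% were called, and 9 were lower and 0 higher in C1q-high cells, with a median of -0.88 where all genes had -0.02 and 10.5% were called. Their summed level in C1q-high cells was 23651 and 23272 CPM on chow against 13548 and 12031 CPM on HFD. Jun, a subunit of AP-1, fell by 2.33 on the log2 scale there, Atf3, a stress-induced transcription factor, by 1.97, and Hspa1a, a heat-shock chaperone, by 1.62. The part of these genes in the lower Tnf and Il10 was not tested.

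Among Ly6c2-positive MHC II-low cells, which resemble newly arrived monocytes, Il1rn alone was called. It was at 62.2 and 90.4 CPM on chow and at 208 and 255 CPM on HFD, from 13, 20, 230 and 249 UMIs. The log2 fold change was 1.47 ± 0.30 with an adjusted p of 0.00779 (edgeR), and 0.0327 with DESeq2, 0.021 without chow mouse 9 and 0.0977 without HFD mouse 3. Tnf was at 110 and 58.8 CPM on chow and at 96.6 and 93 CPM on HFD, so the HFD mice lay between the chow mice (log2 fold change 0.06 ± 0.34). Il1b was likewise between them, with 4960 and 8451 CPM on chow against 7767 and 6805 CPM on HFD.

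Il18 was at 76.5 and 63.3 CPM in these monocyte-like cells on chow and at 110 and 150 CPM on HFD (log2 fold change 0.78 ± 0.33, adjusted p = 0.303, edgeR). Tgfb1 was at 110 and 76.8 against 53.2 and 73.6 CPM (adjusted p = 0.441, edgeR). Il10 had 2, 4, 5 and 2 UMIs in the 4 mice, under the filter for a test. Among these cells 1 of 5 cytokine genes tested was called, where 1.08% of all genes were called, and none of the 5 was called with DESeq2, without chow mouse 9, without HFD mouse 3, at the median cut (Il1rn at an adjusted p of 0.0241) or with the 2% deepest cells left out (0.0162). Over the 17 dissociation genes the median was -0.41, and 0 of them were called.

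The remaining cells were few. In Ly6c2-negative MHC II-high cells (26 and 28 on chow, 98 and 174 on HFD) Il1rn was at 308 and 60.8 CPM on chow and at 460 and 477 CPM on HFD (log2 fold change 1.26 ± 0.36, adjusted p = 0.0267, edgeR). None of 5 genes tested was called, by edgeR's likelihood-ratio test and DESeq2 either, 2 had an unadjusted p under 0.05, and 2.11% of all genes were called. Il1rn was called there without chow mouse 9 (log2 fold change 2.89, adjusted p = 3.06e-05), without the filter (1.55, 0.000917) and at the median cut (1.53, 0.00653), where Il10 was called too. In Ly6c2-negative MHC II-low cells (45 and 38 on chow, 38 and 64 on HFD) Il1b was at 9228 and 14011 CPM on chow and at 5563 and 6657 CPM on HFD (log2 fold change -1.03 ± 0.27, adjusted p = 0.0683, edgeR). There 0 of 5 were called by the same 3 tests, 3 had an unadjusted p under 0.05, and 0.55% of all genes were called, whereas at the median cut Il10, Il1rn and Tnf were called. Il10 had 25 UMIs in chow mouse 9 and 0 in the other mice, where the exact upper limits were 46.8, 49.9 and 27.1 CPM. It was under the filter for a test, and without the filter it was called on these UMIs of 1 mouse. Ly6c2-positive MHC II-high cells numbered 3 and 18 on chow, too few to test. There Il1rn was at 0 and 686 CPM on chow (0 and 33 UMIs), and in the 92 and 331 such HFD cells at 523 and 468 CPM, between the chow mice.

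**Figure D2:**
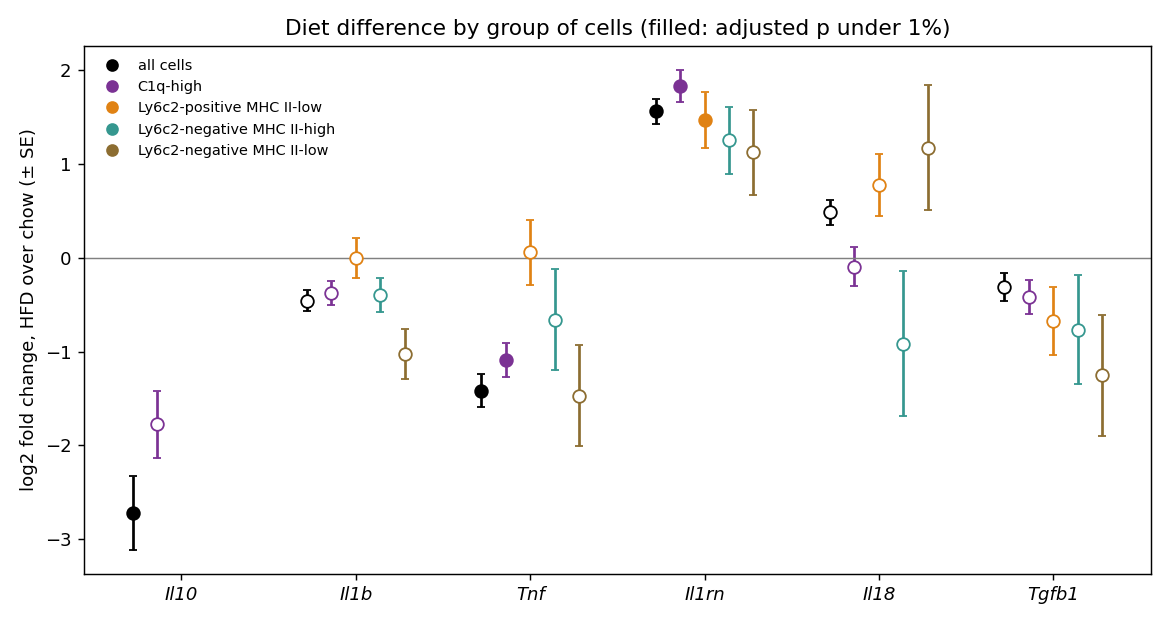
Log2 fold change of HFD over chow for each cytokine gene, over all cells and within 4 groups of cells. Points are edgeR estimates with their standard errors from 2 mice per diet, and filled points have an adjusted p under 1%. Il1rn lies between 1.12 and 1.84 in every group, whereas Tnf is at -1.09 in C1q-high cells and 0.06 in Ly6c2-positive MHC II-low cells. Il10 was tested only over all cells and in C1q-high cells.

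The question of which cells hold each cytokine was asked within diets. Il10 is given by its levels only, since it passed the filter through the C1q-high cells alone. It was at 123 and 274 CPM in C1q-high cells and at 9.57 and 18.1 CPM in Ly6c2-positive MHC II-low cells on chow, and at 75.9 and 54.2 against 4.51 and 2.04 CPM on HFD. On chow, C1q-high cells exceeded Ly6c2-positive MHC II-low cells of the same mice in Tnf by 1.79 ± 0.25 log2 units (adjusted p = 5.84e-05, edgeR with a term for each mouse) and in Il1b by 0.88 ± 0.16 (adjusted p = 0.000958). Besides Il10, 2 of 5 genes were called on chow, and 16.6% of all genes were. The call of Il1b was lost without chow mouse 9 (adjusted p = 0.0626) and that of Tnf without chow mouse 11 (adjusted p = 0.0182). Il1rn (0.78, adjusted p = 0.0547, and 0.0025 without the filter), Il18 (-0.68, 0.182) and Tgfb1 (-0.79, 0.0645) were not called.

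On HFD, Il1rn was higher in C1q-high cells by 1.09 ± 0.16 log2 units (adjusted p = 0.000108, edgeR). Il18 was lower there by 1.61 log2 units (SE 0.23, adjusted p = 9e-05). Besides Il10, 2 of 5 genes were called on HFD, and 16.9% of all genes were. Il1rn was not called without HFD mouse 1 or at the median cut, and Il18 was not called without HFD mouse 3. The difference for Tnf was 0.58 ± 0.18 (adjusted p = 0.0254), and it was called at the median cut and, as was Il1b, without the filter. Il10 UMIs came from C1q-high cells to 93.3% and 99.4% on chow and to 92.8% and 95.6% on HFD, where these cells were 47.4% and 42.2% of the cells.

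Whether diet acted differently in C1q-high and in Ly6c2-positive MHC II-low cells was tested as an interaction. Tnf had the largest difference among the 5 genes other than Il10, -1.21 ± 0.32 log2 units, with an adjusted p of 0.0536 (edgeR), which misses the threshold, and 0.00161 without the filter on low counts. None of these 5 was called and 1.12% of all genes were. Of the 5, 2 had an unadjusted p under 0.05. The difference for Il1rn was 0.31 ± 0.34 and for Il18 -0.93 ± 0.40.

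Finer steps of C1q showed where along the range each gene stood. All cells were ranked and divided into 5 bins of equal size, with edges at 5.84, 79.1, 169 and 219 C1q UMIs per 10000. Il10 was at 11.7 and 37 CPM in bin 1, the lowest, on chow and at 5.71 and 2.8 CPM on HFD. In bin 3 it was at 146 and 288 CPM on chow against 47.2 and 27.9 CPM on HFD, and the diets did not overlap. In bin 4 chow mouse 9 (117 CPM) lay below HFD mouse 1 (190 CPM), and in bin 5 chow mouse 9 (118 CPM) lay below HFD mouse 3 (160 CPM).

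Tnf overlapped between diets in bins 1 and 5 of C1q and did not in bins 2, 3 and 4. In bin 1 it was at 128 and 74.0 CPM on chow and at 101 and 74.6 CPM on HFD. In bin 3 it was at 377 and 301 CPM on chow and at 142 and 82.7 CPM on HFD, in bin 4 at 233 and 257 CPM against 180 and 109 CPM, and in bin 5 at 210 and 187 CPM on chow and at 185 and 221 CPM on HFD. Bin 5 held 100 and 104 HFD cells, against 223 and 657 chow cells. In the highest of 5 bins of MHC II, Tnf was at 187 and 197 CPM on chow and at 236 and 201 CPM on HFD, so that both HFD mice lay above the chow mice there. No test was made along the bins.

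Il1rn differed between diets in every bin of C1q, and in bin 1 chow mouse 11 (284 CPM, 34 cells) came close to HFD mouse 1 (317.2 CPM). It was at 113 and 153 CPM on chow and at 600 and 525 CPM on HFD in bin 3, and at 76.1 and 101 CPM against 173 and 247 CPM in bin 5. Il1b in bin 5 was at 8451 and 9466 CPM on chow and at 6197 and 6215 CPM on HFD, and in bin 2 the HFD mice (9600 and 9624 CPM) lay between the chow mice. Il18 on HFD went from 88.2 and 97 CPM in bin 1 to 40.9 and 24.3 CPM in bin 5. Tgfb1 on chow went from 97.3 and 111 CPM in bin 1 to 57.8 and 43.4 CPM in bin 5. On HFD it went from 52 and 60.6 CPM in bin 1 to 50.5 and 18.3 CPM in bin 5.

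**Figure D3:**
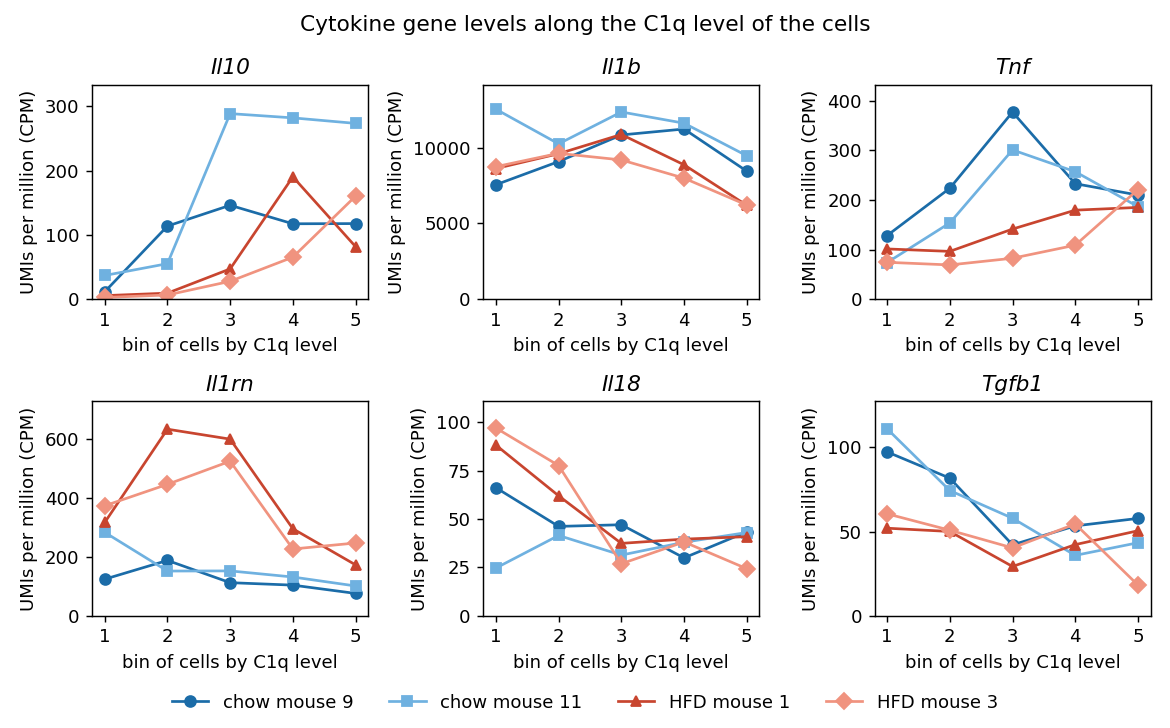
Level of each cytokine gene in CPM along 5 equal bins of all cells ranked by C1q, from lowest (1) to highest (5), with 1 line per mouse and linear axes that start at 0. Il1rn lies higher on HFD in every bin, and Tnf differs between diets in bin 3 (301 to 377 against 82.7 to 142 CPM) and overlaps in bins 1 and 5. Bin 1 holds 92 and 34 chow cells.

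Along Ly6c2, cells of at least 1500 UMIs were thinned to that depth and grouped by their UMIs of Ly6c2. Il10 on HFD was found in 4.73% and 3.73% of cells without Ly6c2, in 1.54% and 2.11% of cells with 1 UMI and in 0% and 0.755% of cells with 3 or more. Il18 was found in 7.95% and 7.04% of HFD cells without Ly6c2 and in 7.02% and 14.7% of those with 3 or more, and in between in 6.15% and 10.1% of cells with 1 UMI and 20% and 10.7% of cells with 2, with no order that both mice shared. Il1rn was found in 33.9% and 35.8% of HFD cells without Ly6c2 and in 21.1% and 28.3% of those with 3 or more. The chow mice had 22 and 49 cells with 1 UMI and 20 and 32 with 3 or more.

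The share of Il10 had a floor to be read against. In Ly6c2-positive MHC II-low cells, where monocytes should hold little of it, 1.64%, 2.99%, 1.15% and 0% of thinned cells had a UMI (0 of 293 cells allows up to 1.25%), with median depths of 3063, 3077, 3994 and 2920 UMIs. In C1q-high cells the shares were 9.97%, 18.6%, 6.02% and 5.25%, at median depths of 4215, 3871, 3782 and 4130 UMIs. The share in C1q-high cells lay above that floor in every mouse, although in chow mouse 9 the exact binomial intervals overlapped (7.88% to 12.4% against up to 8.80%).

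Because the mix of cells differed so much between diets, levels were also computed with the same weights for 4 groups of cells in every mouse. With weights of 72.4% C1q-high, 16.5% Ly6c2-positive MHC II-low, 6.98% Ly6c2-negative MHC II-high and 4.06% Ly6c2-negative MHC II-low cells, Il10 was at 155 ± 73.5 CPM on chow against 48.1 ± 11.4 CPM on HFD (SD, n = 2). Tnf was at 215 ± 22.5 and 120 ± 22.4 CPM, and Il1rn at 115 ± 3.4 and 416 ± 44.9 CPM. The log2 differences (HFD minus chow) were -1.62 for Il10, -0.85 for Tnf, 1.85 for Il1rn, -0.22 for Il1b, 0.34 for Il18 and -0.44 for Tgfb1. Ly6c2-positive MHC II-high cells had no weight, since chow had too few.

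The balance of Il10 with the inflammatory cytokines was taken as the ratio of summed UMIs in each mouse, which needs no scaling between libraries. Il10 had 1.18 and 2.39 UMIs per 100 UMIs of Il1b on chow and 0.444 and 0.323 on HFD. The diets did not overlap, and the log2 ratio was lower on HFD by 2.15, from -5.90 ± 0.72 to -8.04 ± 0.32 (SD, n = 2, exact permutation p = 0.33, the smallest possible). In C1q-high cells the ratio was 1.20 and 2.51 per 100 on chow and 0.814 and 0.622 on HFD, a log2 difference of -1.29 with the same p.

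The ratio of Il10 to Tnf, 2 genes that both fell, behaved differently. It was 45.7 and 112 Il10 UMIs per 100 Tnf UMIs on chow and 32.1 and 31.4 on HFD over all cells, a log2 difference of -1.17 (exact permutation p = 0.33). In C1q-high cells it was 45.4 and 114 on chow and 49.3 and 48.1 on HFD, so that both HFD mice lay just above chow mouse 9 and below chow mouse 11 (log2 difference -0.56, exact permutation p = 1). No shift of Il10 against Tnf could be told from the spread between the chow mice in these cells.

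For the ratio of Il1rn to Il1b, Il1rn had 1.07 and 1.18 UMIs per 100 of Il1b over all chow cells and 4.63 and 4.52 over all HFD cells, a log2 difference of 2.03. In C1q-high cells it had 1.03 and 1.16 on chow and 5.44 and 4.71 on HFD, and in Ly6c2-positive MHC II-low cells 1.25 and 1.07 on chow and 2.67 and 3.74 on HFD. In all 4 groups of cells tested the log2 difference lay between 1.45 and 2.21 without overlap between diets (exact permutation p = 0.33 in each). The chow mice were far apart in Ly6c2-negative MHC II-high cells, at 2.42 and 0.554 per 100 from 23 and 4 UMIs of Il1rn, and the HFD mice were at 4.74 and 5.36. Leaving out single mice gave 1.96 to 2.10 over all cells.

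**Figure D4:**
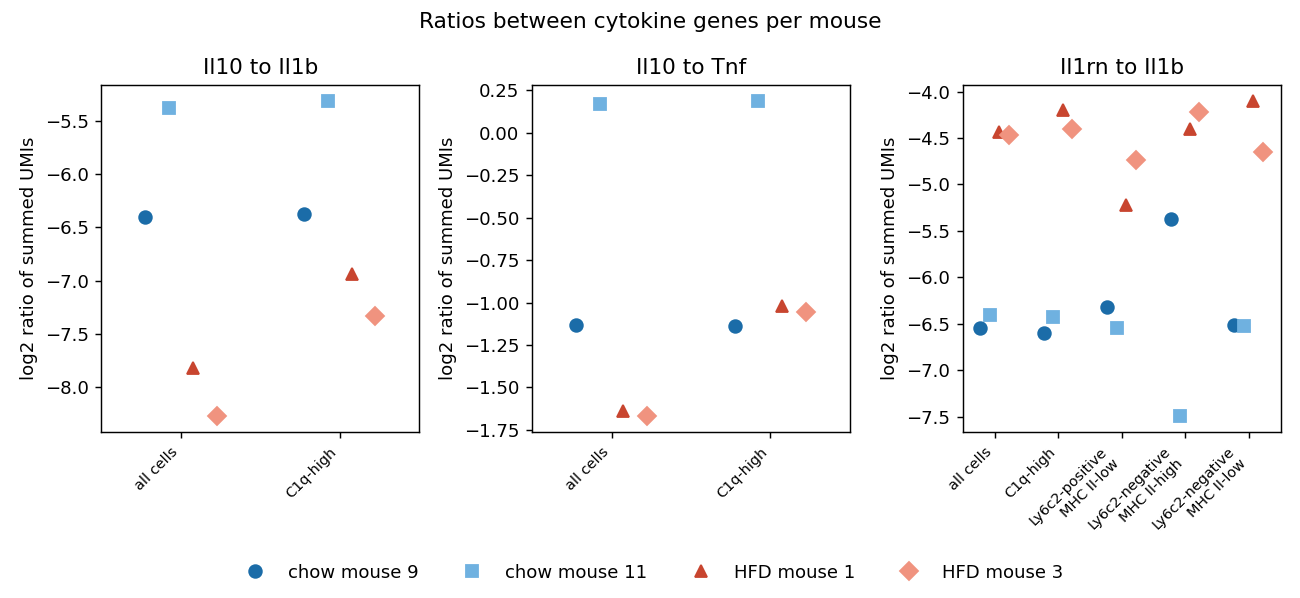
Log2 ratio of summed UMIs of Il10 to Il1b, Il10 to Tnf and Il1rn to Il1b, with 1 point per mouse, over all cells and within groups of cells. The ratio of Il10 to Tnf overlaps between diets in C1q-high cells, with the HFD mice at -1.02 and -1.06 between the chow mice at -1.14 and 0.19, whereas Il1rn to Il1b does not overlap in any group. The vertical axes differ between panels and do not start at 0.

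Within single C1q-high cells, thinned to 1500 UMIs, UMIs of Il10 and Tnf were found in the same cells. On chow, Tnf had a UMI in 25% of the 72 and 25% of the 312 cells with Il10, and in 22% and 21.3% of the cells without it. On HFD, Tnf was found in 9 of 24 (37.5%) and 10 of 31 (32.3%) cells with Il10, against 12.5% and 11.3% of those without. The exact binomial intervals of the HFD cells with Il10 were 18.8% to 59.4% and 16.7% to 51.4%, and they cover counting error only. Tnf also had a UMI in 4.69% to 8.33% of thinned Ly6c2-negative MHC II-high cells over the 4 mice, doublets were kept, and the part of doublets and of RNA from other cells in these shares was not tested. The median of Il1b was 16.5 and 18 UMIs in chow cells with Il10 and 13 in those without, and 18.5 and 13 against 11 UMIs on HFD.

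Il1rn was read against Il10 in the same cells. It had a UMI in 2 of 24 (8.33%) and 7 of 31 (22.6%) HFD cells with Il10 and in 37.3% and 35.9% of those without. The exact binomial interval of the first excludes its mouse's 37.3%, and that of the second, 9.59% to 41.1%, includes 35.9%. On chow the shares were 8.33% and 17% with Il10 and 10.2% and 11.3% without.

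Cytokine UMIs were unevenly spread over cells. A single cell reached 24 and 32 UMIs of Il10 on chow and 14 and 19 on HFD. The 10% of cells with the most Il1b held 30.8% to 34.8% of it, and the highest count in a cell was 285 UMIs. Il18 and Tgfb1 never exceeded 9 and 5 UMIs in a cell.

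Of 12 receptor and processing genes of the same cytokines, Il10rb, Tgfbr1 and Tgfbr2 fell over all cells, Il18bp and Casp1 rose, and the others did not pass or were under the filter. Il10rb, the accessory chain of the IL-10 receptor, was at 216 and 230 CPM on chow and at 111 and 118 CPM on HFD, and Il10ra, its ligand-binding chain, at 108 and 138 against 94.4 and 79.2 CPM. Il10rb fell by 1.19 log2 units (adjusted p = 0.000996, edgeR) and Il10ra did not pass (-0.73, adjusted p = 0.0212). Of 20 genes tested in the list of IL-10 receptors, signalling and regulators, 3 rose and 7 fell over all cells, Il10 among them, with a median of -0.33 against -0.01 over all genes, of which 16.2% were called. Maf, a transcription factor of Il10, fell by 2.31 over all cells and by 1.84 in C1q-high cells (adjusted p = 0.00325, edgeR), from TMM-scaled levels of 105 and 149 CPM to 47.4 and 26.2 CPM there. Hmox1, the heme oxygenase that IL-10 induces, fell by 1.08. Ptpn1, a phosphatase of cytokine receptor kinases, rose by 1.16, Tle3 by 1.07 and Nfil3, a transcription factor that IL-10 induces, by 0.87.

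In the list of IL-1 family ligands, receptors and inflammasome genes, 5 of 20 tested rose and 0 fell, with a median of 0.23, where 16.2% of all genes were called in either direction. Besides Il1rn they were Il18bp, the secreted decoy of IL-18 (log2 fold change 2.60, adjusted p = 0.00147, edgeR), Pycard, the inflammasome adaptor (0.94), Gsdmd, which forms the pores through which IL-1β leaves the cell (0.90), and Casp1 (0.83). Il18bp went from 10.96 and 11.8 CPM on chow to 58.6 and 104 CPM on HFD. Casp1 went from 50.4 and 53.7 to 99.6 and 116 CPM, but in C1q-high cells it did not pass (log2 fold change 0.35, adjusted p = 0.251, edgeR). Nlrp3, an inflammasome sensor, had 251 and 250 against 211 and 178 CPM (adjusted p = 0.0168, edgeR). The decoy receptor Il1r2 had 390 and 300 against 398 and 408 CPM, and Il1rap, at 2.39 to 4.12 CPM, and Il18r1, at 0 to 0.716 CPM, had a UMI in 1.03% and 0.0369% of cells, under the filter. Il1r1 was looked for but was not among the genes of the matrix.

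In the list of TNF release, receptors and signalling, 4 of 21 rose and 4 fell, with a median of -0.13 (16.2% of all genes were called). The falls were Tnf itself, Tnfaip3 (-1.15), which ends NF-kB signalling, and the mRNA decay factors Zfp36 (-0.95) and Zfp36l1 (-1.10). The rises were Traf1 (0.91), Ripk3 (0.89), Cyld (0.77) and Ikbkb (0.76), an adaptor, a kinase of necroptosis, a deubiquitinase and a kinase of NF-kB signalling. Neither receptor passed, with Tnfrsf1a at 167 and 148 against 264 and 265 CPM (log2 fold change 0.53, adjusted p = 0.0161, edgeR) and Tnfrsf1b at 79.8 and 76.4 against 79.8 and 76.1 CPM.

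For TGF-β, the receptors fell while the ligand did not pass. Tgfbr1 was at 244 and 239 CPM on chow and at 102 and 79.7 CPM on HFD (log2 fold change -1.64, adjusted p = 0.000901, edgeR), and Tgfbr2 at 77 and 78.1 against 35.6 and 24.7 CPM (-1.60, adjusted p = 0.00186). Of 16 genes tested in the list of TGF-β activation, receptors and Smads, 1 rose and 5 fell, with a median of -0.30 (16.2% of all genes were called). The integrin subunits Itgav (-1.54) and Itgb5 (-1.49), which take part in releasing latent TGF-β, and Skil (-0.92), a repressor of Smads named after its value was seen, fell, and Tgfbi (0.64), a matrix protein that TGF-β induces, rose. In C1q-high cells Tgfbr1 (-1.11), Tgfbr2 (-1.20) and Itgav (-1.14) fell and Tgfbi rose by 0.96. In Ly6c2-positive MHC II-low cells, where 1.08% of all genes tested were called, none of these 4 pathway lists had a called gene other than Il1rn.

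**Figure D5:**
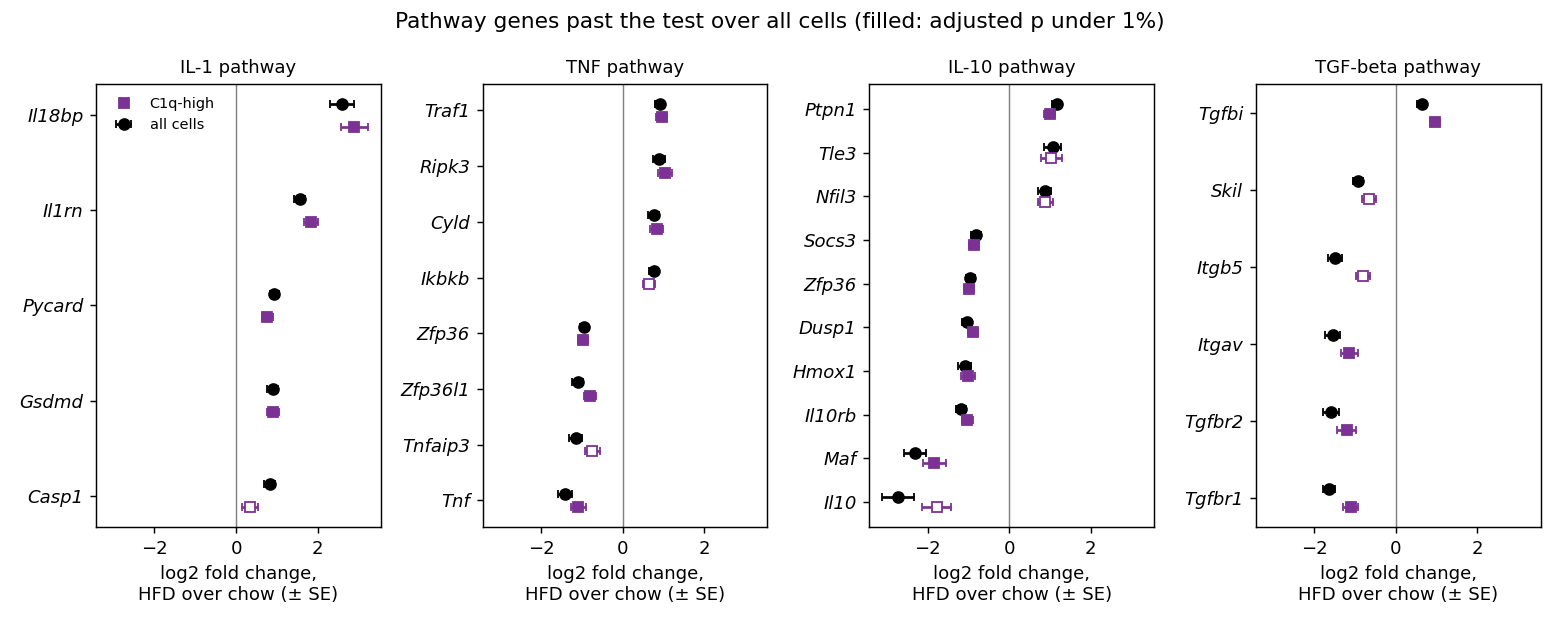
Genes of the 4 pathway lists that passed the test over all cells, with their log2 fold change of HFD over chow and its standard error over all cells (circles) and in C1q-high cells (squares, filled where the adjusted p is under 1%). The IL-1 list holds rises only, from 0.83 for Casp1 to 2.60 for Il18bp, and Il10 and Maf have the largest falls in the IL-10 list.

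The genes whose level was most like each cytokine gene were sought over 18 sums of mouse and cell group, by Pearson correlation of log2 levels among 4955 genes. They share libraries and depth, so the values are descriptions only. Il10 was close to Ms4a14 (r = 0.89) and Sash1 (0.85), Il1b to Ivns1abp (0.87), Snx12 (0.85) and Nup50 (0.84), and Tnf to Nfe2l2 (0.85), Ftl1 (0.82) and Ctsb (0.80). Il1rn was closest to Ndufc2 (0.89), Cxcl9 (0.89) and Vdr (0.89), Il18 to Idh1 (0.78), D1Ertd622e (0.78) and Bst1 (0.77), and Tgfb1 to Fam107b (0.88), Ndel1 (0.87) and Tra2b (0.85).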

How the data were processed

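Cells of 4 mice were used, with n = 2 per diet. Per their methods, the authors quantified reads by pseudo-alignment (kallisto 0.46.0, then bustools 0.39.2) against mm10 transcripts of Ensembl 97. They dropped poor cells, rare genes and cells of other annotated types. The deposited values are unnormalized UMI counts, and a suffix on each cell name gives its mouse. Of 11820 genes, 11819 matched a symbol in GENCODE M21, whose GRCm38 coordinates are given. The filters of the authors set which cells and genes can be seen here.

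UMI counts were summed per mouse, and per mouse and group of cells, in sums of at least 20 cells. Genes above 1 CPM in at least 2 sums and with a UMI in at least 5% of cells were tested with edgeR 4.0.16 (TMM scaling, quasi-likelihood F-test) and called below an FDR of 1%. DESeq2 1.42.0, the likelihood-ratio test, other cuts, filters and depths and leaving out each mouse were alternatives. C1q and MHC II were cut by Otsu's method on log2 values. Cells were thinned with a fixed seed. Doublets were kept, and an alternative left out the 2% of cells with the most UMIs. Leaving out cells with a dendritic cell marker was chosen after seeing the data. Code was tested on simulated counts. Promoters come from RefSeq (GRCm38.p6).

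The named genes are the 6 cytokine genes, up to 4 called genes per pathway list and direction with the largest change, the receptors and processing genes whatever their result, and the 3 genes most like each cytokine, of which 1 is not reported here. Marker genes of cell types were named beyond this rule. Cytokine genes and lists were chosen with earlier results of these data known. The edgeR p-values for diet rest on the spread between 2 mice per diet, moderated by the spread shared across genes. Those that compare groups of cells rest on differences within each mouse, moderated in the same way. The labels give no batch or date, so a batch that followed diet cannot be told apart from it. Intervals are at 95% and cover counting error only.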

Additional observations from a re-analysis of the deposited data

How the results depend on the processing

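Diets were compared without pairing, since no pairing of chow mice (9 and 11) with HFD mice (1 and 3) is given. Groups of cells were compared within mice, with a term for each mouse. Of the results that answer a comparison, 145 alternative values were labelled the same. That meant the same side of the threshold, a count within 1.5 times or a move within the spread between mice. Shares, ratios and standardised levels were not checked for direction, so a small difference could change sign and still count as the same. Another 16 were stronger and 19 weaker, by the threshold or by over 1.5 times in a count. The other 13 moved by more than the spread between mice. Over all cells 805 genes were called, 380 higher and 425 lower on HFD, against 1307 with the likelihood-ratio test, 1218 without the filter and 155 to 920 when a mouse was left out (155 without HFD mouse 3 and 268 without HFD mouse 1), and scaling by library size alone gave 679 higher and 304 lower. The numbers for C1q-high cells were 531 against 926, 912, 32 to 764 (32 without HFD mouse 3 and 113 without HFD mouse 1) and 93 at the median cut, and for Ly6c2-positive MHC II-low cells 49 against 99, 127 and 46 to 119. Ly6c2-negative MHC II-high cells gave 94 against 37 with DESeq2, 232 at the median cut, 40 with at least 2 UMIs of Ly6c2 and 36 to 112 without a mouse. Ly6c2-negative MHC II-low cells gave 20 against 35 (likelihood-ratio test), 46 (no filter), 3 (DESeq2), 10 (deepest 2% of cells left out), 231 (median cut), 44 (at least 2 UMIs of Ly6c2) and 8 to 27. Between groups of cells on chow the range without a mouse was 266 to 1036 around 894, on HFD 332 to 727 around 907 (332 without HFD mouse 1 and 561 without HFD mouse 3), and for the interaction 10 to 65 around 60, with 172 without the filter. The cause of these shifts was not tested. In Ly6c2-negative MHC II-high cells DESeq2 tested 1516 genes and the main fit 4447. With a mouse left out, its lone partner is assumed to vary like the other diet.

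Without single mice the log2 fold change over all cells ran from -3.18 to -2.02 for Il10, from -1.66 to -1.19 for Tnf, from -0.52 to -0.38 for Il1b and from 0.43 to 0.54 for Il18. The likelihood-ratio test called Il1b at -0.45 (adjusted p = 0.00969), and library size alone called Il18 at 0.71. The share of thinned cells (HFD minus chow, in points) was -8.59 at 1000 UMIs and -16.8 at 2500 for Tnf, 14.9 and 22.6 for Il1rn, and at 2500 UMIs 4.48 for Il18 and -0.96 for Tgfb1. Equal weights for every group of cells gave standardised log2 differences of -2.40 for Il10, -0.36 for Il1b, 1.54 for Il1rn, 0.54 for Il18 and -0.74 for Tgfb1. The median cut gave 1.504 for Il1rn, and chow weights 0.21 for Il18. Depth limits Il10, with 2 to 5 UMIs per mouse in Ly6c2-positive MHC II-low cells.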

Other observations

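Other cytokines of myeloid cells were also read in these sums. Of 11 genes tested on a list of 34, 1 rose and 5 fell over all cells on HFD, with a list median of -0.72 (log2) where all genes had -0.01 and 16.2% of them were called. Igf1, insulin-like growth factor, fell by 4.37 on the log2 scale (TMM-scaled levels of 78.4 and 76.3 CPM on chow, 4.82 and 2.90 CPM on HFD, adjusted p = 0.000149, edgeR), and Pf4, the chemokine platelet factor, by 3.58 (2308 and 2283 against 242 and 144 CPM, adjusted p = 0.000297, edgeR). Pdgfb, a growth factor for mesenchymal cells, fell by 1.98, and Tnfsf13b, the B cell factor BAFF, by 1.17. Mif, macrophage migration inhibitory factor, rose by 1.32 (51.3 and 57.4 against 127 and 144 CPM, adjusted p = 0.00122, edgeR). In C1q-high cells Igf1, Pf4 and Pdgfb also fell and Mif rose by 1.49, and in Ly6c2-positive MHC II-low cells Pf4 fell by 3.30 (adjusted p = 0.000199, edgeR).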
